A study of Rattus norvegicus with 12 samples.

Results

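The ribosomal RNA like cluster is the stretch of rat chromosome 1 from 11850001 to 12020000 (build Rnor 6.0, 170000 bp). Within it the study annotates its stromal region at 11916701 with pRNA and that at 11963101 with pRNA and 5_8S_rRNA, among others. Its stromal region at 11935001 has no annotation. The cluster was chosen by the p-values of the stromal lineage comparison, as regions of small p-value lay in it. The stromal lineage difference is therefore given here as a description without a test. Epithelial cells came from the same groups of rats as the stromal cells. The epithelial lineage p-values below may thus carry part of that choice and are no independent support. The cluster's members are all 1700 windows of 100 bp that start between its limits, of 27820300 windows in the genome. They were compared with the 500 kb on each side. No annotation or sequence of this build was used here, so the family names rest on the study's own assignment and the positions of single copies within the cluster are not given.

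Ribosomal RNA genes lie in tandem repeats. In each repeat RNA polymerase I transcribes one long precursor, from which RNAs of the small and large ribosomal subunits are cut, among them the short 5_8S_rRNA. Many of the repeats are silent and carry methylated DNA. The promoter-associated RNA, or pRNA, is a short transcript that overlaps the rRNA gene promoter and guides the nucleolar remodelling complex NoRC, which brings DNA methyltransferases and histone deacetylases to the repeats that are silenced. Copies and fragments of these sequences also lie elsewhere in mammalian genomes, many of them as pseudogenes.

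Methylated DNA immunoprecipitation (MeDIP) pulls down fragments with an antibody to 5-methylcytosine, and the fragments are then sequenced and counted per window. The animals were F3 generation males of an outbred rat strain, Hsd:Sprague Dawley SD, aged 19 to 21 days. Their F0 ancestors were injected intraperitoneally on gestation days 8 to 14 with vinclozolin, a fungicide with anti-androgenic action, at 100 mg/kg/day in DMSO (vinclozolin lineage), or with DMSO alone (control lineage), and no later generation was treated. Each of the 12 samples was DNA of ventral prostate cells pooled from several rats, with 3 pools for each lineage of epithelial cells and 3 for each lineage of stromal cells. Both cell types were separated by settling and centrifugation from the same groups of rats, so the 2 cell types are not independent of each other, and the purity of the cells was not examined here.

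The pools held 57135700 to 112304623 window counts, and a read was counted in more than 1 window on average. No window of the genome exceeded 300 counts in any pool, and the highest count in the cluster was 261, or 87.0% of that limit. How duplicate reads were handled is not given in the sources used here. Counts are given as CPM, that is, scaled to a common total over the pools. Without an input library, more copies in the rats than in the assembly and more methylation per copy cannot be told apart, since both raise the count. Reads that match several copies equally well cannot be told apart either. The values are therefore those of reads as mapped to this place, and some of these reads may come from similar sequences elsewhere. Whether the whole cluster belongs to 1 family of sequences was not examined here.

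The cluster stood well above its flanks in every pool. The mean CPM per window in the cluster was 9.60 to 13.0 times that of the flanks in the 6 epithelial pools and 9.75 to 15.3 times in the 6 stromal pools. In epithelial cells the mean log2 ratio was 3.48 (SD 0.165, n = 6 pools), an 11.1-fold difference that was present in 6 of 6 pools (exact sign-flip permutation test, two-sided, p = 0.03125, the smallest that 6 pools can give). Over the windows that reached a summed count of 40 alone, the mean log2 ratio was 2.23 (same exact test, p = 0.03125). The cluster was chosen through stromal windows of small p, which need many reads. High counts were thus likely in epithelial pools too, so these p-values are no independent support. Of the 1700 windows, 676 reached a summed count of 40 over the 6 epithelial pools, the minimum for a test, and 687 reached it over the stromal pools. That was 39.8% of the cluster's windows in epithelial cells, beside 9.07% of the flank windows and 11.9% of the genome. A further 215 windows had no count in any pool.

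The reads were concentrated in the middle of the cluster. Of its 17 segments of 10 kb, the 8 consecutive ones from 11900001 to 11980000 held 95.4% of the counts and lay at 10.3 to 45.1 times the flank level. The other 9 lay at 0.250 to 3.16 times it. Ranked by mean CPM over the 12 pools, all 8 of these central segments were among the top 500 of 278192 segments of the genome. The highest, from 11940001 to 11950000, took rank 11 with a mean of 1.26 CPM per window. In epithelial cells every vinclozolin pool was below every control pool in 2 of the 8 segments, beside 7.21% of segments in the genome, and above in 0, beside 7.95%. In stromal cells every vinclozolin pool was below in 3 of 8, beside 10.2%, and above in 0, beside 11.9%. The segments of the genome were not matched to these 8 for signal. The limits themselves crossed near-background DNA. The window just outside the left limit, at 11849901, had 0 to 4 counts per pool, and the window just inside it had 0 to 5. At the right limit the window just inside, at 12019901, had 0 to 2 counts and the one just outside had 0 to 1.

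**Figure D1:**
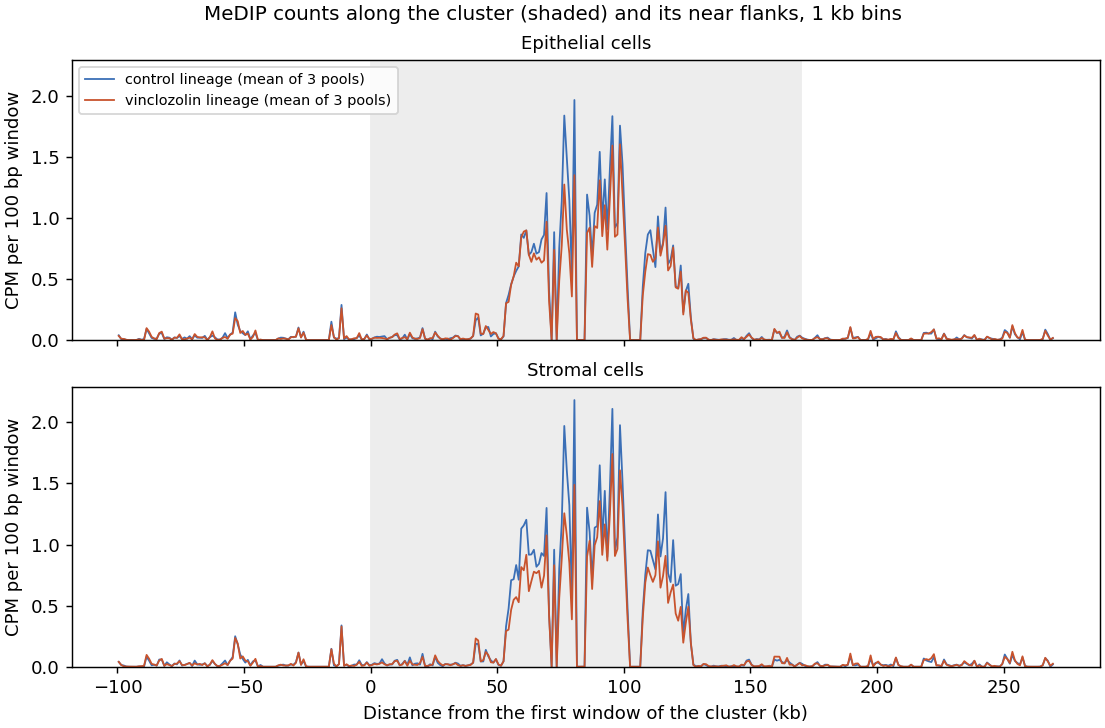
MeDIP signal (CPM per 100 bp window, averaged over bins of 1 kb and 3 pools) against the distance from the first window of the cluster, in epithelial (top) and stromal cells (bottom), for the control (blue) and vinclozolin lineage (red). The signal stands in the 8 central segments of the shaded cluster, with gaps free of reads, and the blue line lies above the red one over most of it.

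The 5 windows with the highest mean CPM were neighbours, from 11944801 to 11945300. At the highest of them, the window starting at 11945101, the mean over the 12 pools was 2.87 CPM. In epithelial cells its values were 3.12, 2.61 and 3.06 CPM in control pools 1, 2 and 3 and 2.72, 2.15 and 2.73 CPM in the vinclozolin lineage. In stromal cells they were 3.73, 3.34 and 3.26 CPM in the control and 2.27, 2.32 and 3.16 CPM in the vinclozolin lineage. The epithelial values of the lineages overlapped (log2 fold change -0.20, adjusted p = 0.818, edgeR's exact test). In CPM every stromal control pool was above every stromal vinclozolin pool. The epithelial log2 fold changes of the other 4 windows ranged from -0.26 to -0.13, with adjusted p-values of 0.730 to 0.966 in the same exact test. The stromal counts at 11945101 were 213, 215 and 241 in the control and 250, 261 and 227 in the vinclozolin lineage. The limit was 300 counts per window, and vinclozolin pools 1 and 2 were the deepest stromal pools. No value corrected for this limit is given for single windows. The part of the limit in the stromal separation at 11945101 was not tested.

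Summed over all windows, the signal of the cluster was lower on average in the vinclozolin than in the control lineage of both cell types, with overlapping pools. Epithelial control pools 1, 2 and 3 had 622, 502 and 574 CPM, and epithelial vinclozolin pools 1, 2 and 3 had 452, 485 and 519 CPM. Control pool 2 lay below vinclozolin pool 3, and otherwise the lineages did not overlap. The means were 566 ± 60.6 CPM (SD, n = 3) in the control and 485 ± 33.02 CPM (SD, n = 3) in the vinclozolin lineage. The mean log2 difference was -0.22 (SE 0.107), or -14.0%, and it did not pass the test (exact permutation test, two-sided, p = 0.2). For the median over windows in place of the sum it was -0.08 (same exact test, p = 0.8). With 3 pools against 3 the smallest possible p is 0.1. The flanks differed by less than the spread between pools, with a log2 difference of -0.00 (SE 0.0146, p = 0.7, same exact permutation test), and the ratio of cluster to flanks differed by -0.21 on the log2 scale (SE 0.106, p = 0.2, same exact test). Without the 1 pool that lay highest, control pool 1, the log2 difference was -0.15.

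In stromal cells, whose contrast chose the cluster, control pools 1, 2 and 3 had 713, 571 and 665 CPM and vinclozolin pools 1, 2 and 3 had 467, 505 and 574 CPM. These are means of 650 ± 72.7 CPM (SD, n = 3) and 515 ± 54.7 CPM (SD, n = 3), a log2 difference of -0.33. Control pool 2 and vinclozolin pool 3 overlapped narrowly. Relative to the flanks the stromal lineages no longer overlapped, with ratios of 15.3, 12.04 and 14.03 in the control and 9.75, 10.3 and 11.6 in the vinclozolin lineage, since the flanks themselves were slightly higher in the vinclozolin lineage (log2 difference 0.05).

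**Figure D2:**
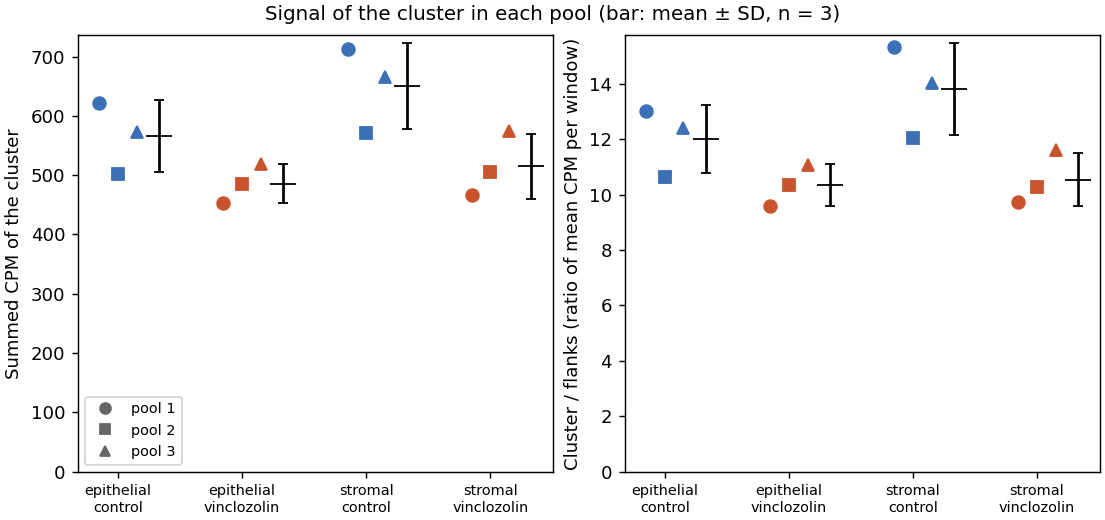
Summed CPM of the cluster (left) and its ratio to the flanks in mean CPM per window (right) for each pool, with circles, squares and triangles for pools 1, 2 and 3 and bars for the mean ± SD of 3 pools. In the left panel the 6 lineage and pool numbers take the same order in both cell types, from control pool 1 with 622 and 713 CPM to vinclozolin pool 1 with 452 and 467 CPM.

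The lineage and pool numbers kept 1 order of summed CPM in both cell types, namely control 1, control 3, vinclozolin 3, control 2, vinclozolin 2 and vinclozolin 1 from the highest to the lowest. Relative to the flanks the order differed in 1 place, as control pool 2 was above vinclozolin pool 3 in stromal and below it in epithelial cells. Whether a number stands for the same group of rats in both cell types is not given in the sources used here. The deepest pool of each cell type, vinclozolin pool 2, was second from the bottom, and the shallowest, control pool 1, was at the top. Since the counts end at 300, the values were also computed with each count corrected for that limit, as if a window could hold at most 300 distinct reads. The log2 lineage difference was then -0.24 in epithelial cells (exact permutation test, p = 0.2) and -0.30 in stromal cells. A part of depth in the order of the pools was not tested otherwise.

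Window by window, few epithelial differences passed the test. In the exact test of edgeR, adjusted over the genome after Benjamini and Hochberg, 2 of the 676 epithelial windows had an adjusted p under 0.05, beside 0.0615% of all windows tested, and both were lower in the vinclozolin lineage. The genome held 0.0313% of windows called lower and 0.0303% called higher. The shift of the remaining windows was broad and small. The log2 fold change was below 0 in 470 of 676 windows, 69.5% beside 50.5% in the genome, and its median was -0.15 beside -0.00. An unadjusted p under 0.05 was reached by 119 windows with a lower value in the vinclozolin lineage, 17.6% beside 4.29%, and by 18 with a higher value, 2.66% beside 3.94%. When 1 pool was left out, the count of 119 ranged from 72 without vinclozolin pool 1 to 189 without control pool 2. The genome's count of 141704 was then 103856 and 137740. The cluster's median ranged from -0.21 to -0.09. In 117 windows every vinclozolin pool was below every control pool, 17.3% beside 7.75% in the genome, and in 19 every one was above, 2.81% beside 7.31%. Neighbouring windows share reads and are not independent, so these counts carry no test of their own.

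A lower value in the vinclozolin lineage was also usual among other windows with many reads. Over all 18686 epithelial windows whose counts summed to 400 or more, the median log2 fold change was -0.13, and 71.5% of them were below 0. The 244 such windows of the cluster had a median of -0.24, and 218 of them, or 89.3%, were below 0. Of these, 87 had an unadjusted p under 0.05 and a lower value in the vinclozolin lineage, 35.7% beside 16.7% of all windows with that many reads. An adjusted p under 0.05 in the same direction was reached by 0 of the 244, beside 0.257%.

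The epithelial window with the smallest p started at 11927501. Its counts were 74, 33 and 29 in control pools 1, 2 and 3 and 15, 18 and 8 in vinclozolin pools 1, 2 and 3, or 1.22, 0.378 and 0.403 CPM against 0.181, 0.165 and 0.107 CPM. All control values were above all vinclozolin values, and control pool 1 alone had more reads than the other 2 control pools together. The log2 fold change was -2.09 (SE 0.292 from the quasi-likelihood fit, adjusted p = 0.0115 from edgeR's exact test), and it was -1.32 without control pool 1 (adjusted p = 0.0285). The call was lost when any 1 vinclozolin pool was left out (adjusted p = 0.0902, 0.159 and 0.121 without pools 1, 2 and 3), with log2 fold changes of -2.23, -2.15 and -1.90. In stromal cells the same window had 54, 30 and 37 counts in the control and 29, 37 and 35 in the vinclozolin lineage. In CPM these were 0.945, 0.466 and 0.500 against 0.263, 0.329 and 0.487. The lineages overlapped there, with control pool 2 below vinclozolin pool 3, and the stromal log2 fold change was -0.81.

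The other epithelial window that passed started at 11918601, with 68, 83 and 69 counts in the control and 50, 65 and 51 in the vinclozolin lineage. In CPM these were 1.12, 0.951 and 0.960 against 0.605, 0.595 and 0.684, again without overlap. Its log2 fold change was -0.67 (SE 0.187, adjusted p = 0.0310, edgeR's exact test), and the call was lost without any 1 of the 6 pools, with adjusted p-values from 0.0690 to 0.311 and log2 fold changes from -0.73 to -0.61. The quasi-likelihood test gave an adjusted p of 0.130. The next 3 windows in the order of p started at 11927401, 11917401 and 11935101, with log2 fold changes of -1.22, -0.70 and -0.52, and their adjusted p-values of 0.0683, 0.0724 and 0.0830 were above the limit. The window at 11927401 adjoins the first and passed the quasi-likelihood test (adjusted p = 0.0115). Control pool 1 was the highest there too, with 1.62 CPM beside 0.676 and 0.807 CPM in the other control pools, and without it the log2 fold change was -0.75 (adjusted p = 0.111, edgeR's exact test).

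In stromal cells 44 of 687 windows had an adjusted p under 0.05, beside 0.56% of the genome, which repeats how the cluster was chosen. Of these, 43 were lower in the vinclozolin lineage, beside 0.431%, and 1 was higher, beside 0.129%. An unadjusted p under 0.05 was reached by 266 windows with a lower value, beside 6.31%, and by 15 with a higher one, beside 4.83%. The log2 fold change was below 0 in 568 of 687 windows, 82.7% beside 50% in the genome, with a median of -0.31. In 229 windows every vinclozolin pool was below every control pool, beside 9.85%, and in 22 every one was above, beside 8.42%. Of the 281 stromal windows whose counts summed to 400 or more, 264 were below 0, or 94.0% beside 75.1% of all such windows, and their median was -0.33 beside -0.19. Calls of a lower value were no more frequent in them than in all such windows, with 28, or 9.96% beside 11.2%. All of these stromal counts describe the contrast that chose the cluster, and nothing is read from them. Neighbouring windows with a p under 0.1 were joined where 1000 bp or less separated their starts and where at least 1 of them had a p under 1e-06. They formed 3 stromal regions in the cluster, of 1250 in the genome, and 0 epithelial ones, of 303. The stromal regions lay from 11916701 to 11920600, from 11935001 to 11936100 and from 11963101 to 11968000, and held 22, 11 and 39 joined windows with median log2 fold changes of -0.43, -0.49 and -0.55. Their windows of smallest p started at 11917801, 11935201 and 11965901.

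These 3 windows were picked for their stromal p, so their stromal values are given only as a description beside the epithelial ones. At 11965901 the stromal values were 2.00, 1.60 and 1.93 CPM in the control and 1.06, 1.10 and 1.21 CPM in the vinclozolin lineage. The log2 fold change there was -0.70. The epithelial values were 1.32, 1.35 and 1.42 CPM against 1.08, 1.36 and 1.25 CPM, with overlap (log2 fold change -0.13, adjusted p = 0.914, edgeR's exact test). At 11935201 the epithelial pools did not overlap, with 2.18, 1.70 and 1.86 CPM in the control and 1.23, 1.33 and 1.47 CPM in the vinclozolin lineage. Its epithelial log2 fold change of -0.49 did not pass the test (adjusted p = 0.133, edgeR's exact test), beside -0.64 in stromal cells. At 11917801 the epithelial pools did not overlap either, with 1.49, 1.05 and 1.21 CPM in the control and 0.920, 0.815 and 0.978 CPM in the vinclozolin lineage. The log2 fold changes there were -0.45 in epithelial (adjusted p = 0.369, same test) and -0.70 in stromal cells. The difference between the cell types in these changes was not tested.

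The windows with reads formed 6 stretches of at least 1000 bp, when windows with enough reads at most 300 bp apart were joined, with 62100 bp in all. The log2 lineage difference was negative in 5 of 6 stretches in each cell type, from -0.53 to -0.12 in epithelial and from -0.52 to -0.23 in stromal cells. The first and smallest stretch, from 11890801 to 11892800, went the other way. It had 0.180, 0.164 and 0.186 CPM per window in epithelial control pools and 0.215, 0.232 and 0.205 CPM in vinclozolin pools, so every vinclozolin pool was higher (log2 difference 0.30, SE 0.0741, exact permutation test, p = 0.1, the smallest possible). Its stromal log2 difference was 0.24, also with every vinclozolin pool higher. This stretch lies outside the 8 central segments and had at most 42 counts in a window.

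**Figure D3:**
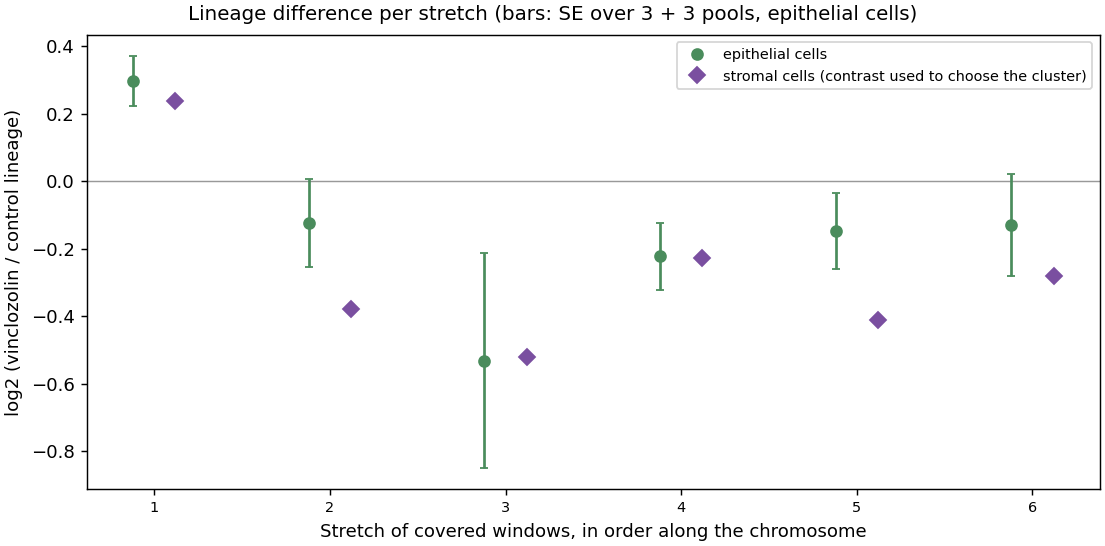
Log2 difference of vinclozolin to control lineage in mean CPM for the 6 stretches in their order along the chromosome, with SE bars over 3 and 3 pools for epithelial cells (green) and stromal values without bars (purple), as that contrast chose the cluster. Stretch 1 lies above 0 in both cell types and the other 5 lie below.

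The third stretch, from 11924201 to 11931000 (6800 bp), stood apart in the libraries labelled control pool 1. Control pool 1 had 1.89 CPM per window in epithelial cells, beside 0.933 and 1.08 CPM in the other 2 control pools, or 1.88 times their mean. In stromal cells it had 1.96 CPM beside 1.09 and 1.20 CPM, or 1.71 times their mean. The vinclozolin pools had 0.856, 0.794 and 0.928 CPM in epithelial and 0.891, 0.921 and 1.05 CPM in stromal cells. Control pool 1 was thus the highest of the 6 pools of each cell type. It was the highest in both cell types in 64 of the 68 windows of this stretch, 94.1%, beside 87 of the other 601 windows of the cluster that had enough reads, 14.5%, and 5.08% of such windows in the genome. This count was made after the values had been seen, and the cause was not tested.

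The epithelial log2 lineage difference of this stretch was -0.53 (SE 0.318, exact permutation test, p = 0.1, the smallest possible), and every control pool was above every vinclozolin pool. Without control pool 1 it was -0.23. The lowest control pool, with 0.933 CPM, was just above the highest vinclozolin pool, with 0.928 CPM. The window of smallest epithelial p, at 11927501, lies in this stretch. Without the stretch the summed epithelial signal differed by -0.16 on the log2 scale (exact permutation test, p = 0.2), beside -0.22 with it.

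**Figure D4:**
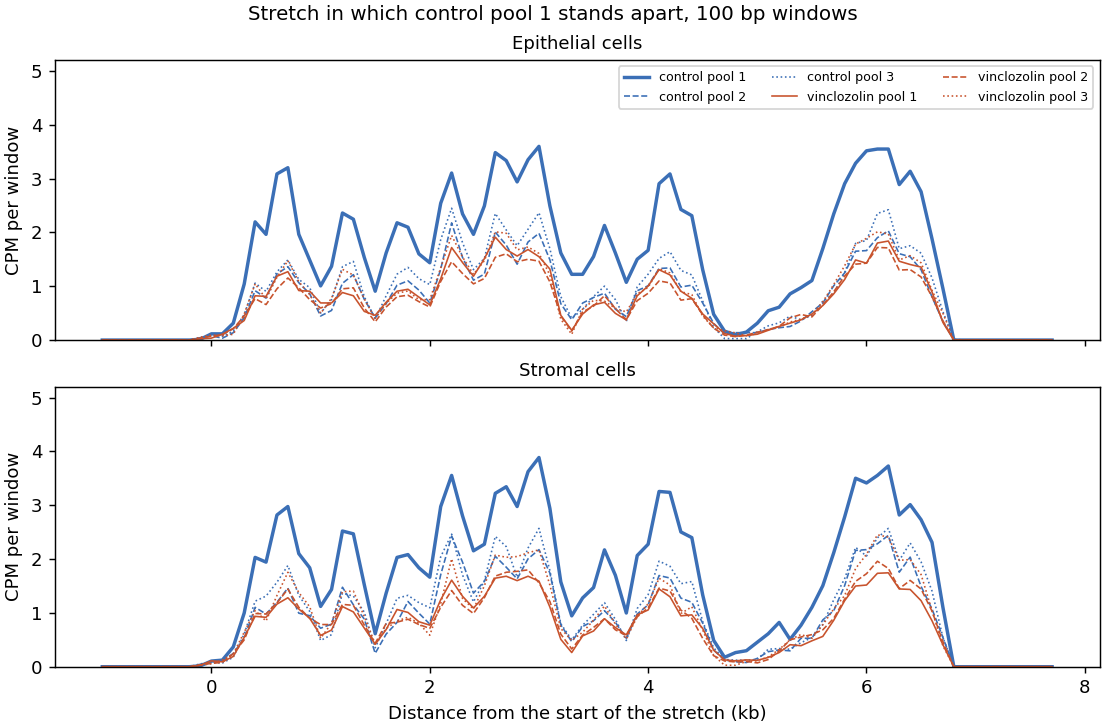
CPM per 100 bp window along the third stretch, against the distance from its start in kb, for each epithelial (top) and stromal pool (bottom), in blue for control and red for vinclozolin lineage pools. Control pool 1 (thick line) runs above the other 5 pools over nearly the whole stretch in both cell types, at 1.88 and 1.71 times the mean of the other control pools.

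The second and the fifth stretch, from 11903601 to 11920800 and from 11957501 to 11973100, resembled each other. Their epithelial log2 differences were -0.12 (SE 0.131, exact permutation test, p = 0.5) and -0.15 (SE 0.113, p = 0.4, same exact test), and their stromal ones were -0.38 and -0.41. Without vinclozolin pool 1 the epithelial ones were -0.01 and -0.05. The stromal mean of the control lineage was 1.24 and 1.23 times the epithelial one there, while that of the vinclozolin lineage was 1.03 and 1.02 times it. The fourth stretch, from 11935001 to 11951900, holds the highest windows. Its log2 differences were -0.22 in epithelial (SE 0.0983, p = 0.2, same exact test) and -0.23 in stromal cells, and the stromal mean was 1.08 times the epithelial one in both lineages. The sixth stretch, from 11973401 to 11977000, had log2 differences of -0.13 in epithelial (p = 0.5, same exact test, and -0.01 without vinclozolin pool 1) and -0.28 in stromal cells.

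The signal was higher in stromal than in epithelial cells of the same lineage and pool number. The ratio of the summed CPM of stromal to epithelial cells lay between 1.03 and 1.16 in the 6 pairs, and stromal cells were higher in 6 of 6. Relative to the flanks they were higher in 5 of 6, with vinclozolin pool 2 at 0.993. In the control lineage the ratios of summed CPM were 1.15, 1.14 and 1.16. In the vinclozolin lineage they were 1.03, 1.04 and 1.11, so the lineages did not overlap. With counts corrected for the limit per window they overlapped, as control pool 2 had a lower ratio than vinclozolin pool 3. The corrected sums of control pool 2 were 655 CPM in stromal and 591 CPM in epithelial cells. Those of vinclozolin pool 3 were 672 and 594 CPM. Stromal cells stayed higher in 6 of 6 pairs after the correction. Over the 669 windows with enough reads in both cell types, every stromal pool was above every epithelial pool in 95 windows of the control lineage, 14.2% beside 5.62% in the genome, and in 65 of the vinclozolin lineage, 9.72% beside 5.67%. The reverse held in 5 windows of the control lineage, 0.747% beside 5.72%, and in 18 of the vinclozolin lineage, 2.69% beside 6.99%. No test was made here, as the stromal pools entered the choice of the cluster.

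The study also places stromal regions on chromosomes 5, 6 and 14 at copies of the 5_8S_rRNA. By the same joining they lay on chromosome 5 from 91125501 to 91137900, on chromosome 6 from 30628001 to 30633800, and on chromosome 14 from 46637401 to 46661700 and from 46678801 to 46689100. Their stromal log2 lineage differences, which chose them, were -0.51, -0.59, -0.53 and -0.50. The epithelial ones were -0.14, -0.11, -0.28 and -0.13, with p-values of 0.5, 0.9, 0.2 and 0.7 (exact permutation tests). The chromosome 1 cluster differed from these regions in its epithelial log2 difference by -0.08, -0.11, 0.06 and -0.08 in the same order. None of these differences reached the smallest possible p of 0.1 (exact permutation tests over the 6 pools, p = 0.6, 0.6, 0.4 and 0.6, unadjusted for the 4 comparisons). The study also lists epithelial regions annotated with pRNA on chromosomes 1 and 14, outside all of these places and lower in the vinclozolin lineage. They were not compared here.

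In all 4 of these regions epithelial vinclozolin pool 1 was the lowest of the 6 epithelial pools, as it was in the cluster. On chromosome 6, for example, it had 0.407 CPM per window beside 0.586 and 0.562 CPM in the other vinclozolin pools and 0.530, 0.546 and 0.585 CPM in the control pools. Control pool 1, which stood apart in the third stretch, had the highest epithelial value only in the first chromosome 14 region, with 0.865 CPM beside 0.689 and 0.773 CPM. The ratio of stromal to epithelial means in these regions was 1.20 to 1.36 in the control lineage and 0.957 to 1.00 in the vinclozolin lineage. If reads of near-identical copies were divided among these places, their values are not independent of each other, and the identity of the sequences was not examined here.

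**Figure D5:**
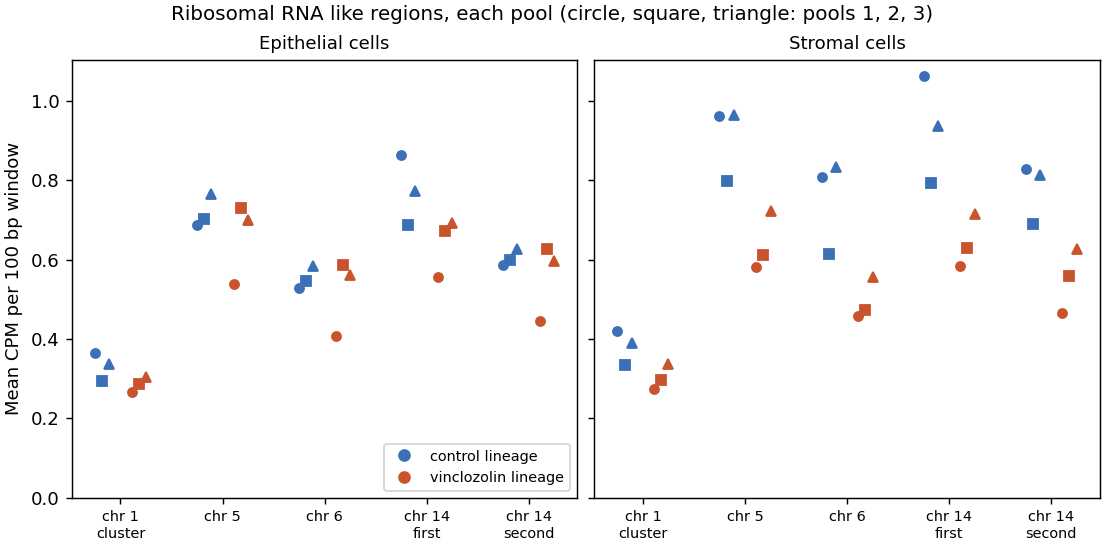
Mean CPM per 100 bp window of the chromosome 1 cluster and of the 4 other ribosomal RNA like regions, each pool as a circle, square or triangle for pools 1, 2 and 3, in blue for the control and red for the vinclozolin lineage. The cluster is lower per window because it includes its gaps and outer segments, and in the stromal panel, whose contrast chose all of these regions, the control pools lie above the vinclozolin pools in the 4 other regions.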

How the data were processed

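MeDIP-Seq was measured in 3 pools of each lineage for each cell type. After trimming (Trimmomatic), alignment to Rnor 6.0 (Bowtie2, default settings) and sorting (SAMtools), the authors counted the reads of 100 bp windows with the MEDIPS package. Versions are not given in the sources used here. The deposited counts are whole numbers without normalization. The deposited RPKM values per pool, which the authors scaled to library size and window length, served only to find the number of reads per pool, from 38087520 to 74869792. The tables also hold the authors' group means, fold changes, and p-values from edgeR, which were not used.

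Lineages were compared within each cell type over the whole genome by the exact test of edgeR (version 4.0.16, R 4.3.3). Windows entered it if their counts over the 6 pools added up to 40 or more. TMM factors lay from 0.981 to 1.02, and 400000 windows drawn with a fixed seed gave the common dispersion. Adjustment followed Benjamini and Hochberg, with a limit of 0.05. On 60000 simulated windows the epithelial test recovered 15% of 2-fold and 69% of 4-fold changes. These windows were drawn from the whole genome and simulated at the common dispersion, with adjustment over the 60000 alone. The shares recovered are therefore not those of the cluster's windows. Standard errors of single windows are from the quasi-likelihood fit. Those of the summed cluster, its ratio to the flanks, the flanks and the stretches are from the spread of log2 values between pools. DESeq2 1.42.0 was fitted on chromosome 1 alone. Permutation p-values rest on the spread between pools of rats alone. Those of edgeR's exact test rest on a dispersion per window that is drawn towards the common one. The cluster, the lists and the rules were chosen with earlier results of these data known.

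Windows named are the 5 of smallest epithelial p, the 5 of highest mean CPM, the smallest-p window of each joined stromal region, and those at both limits. The alternatives were other tests, normalizations, count minimums, summaries, flanks, a replicate block by pool number, and leaving out each pool. The correction for the limit of 300 counts, the exclusion of the third stretch and the values of the stretches without each pool were added after seeing the data. Over all windows, deviations from the group mean of same-numbered control and vinclozolin pools correlated at -0.07 to 0.01 in epithelial and at -0.02 to 0.01 in stromal cells, so pool number was no block in the main test.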

Additional observations from a re-analysis of the deposited data

How the results depend on the processing

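Of the 2 epithelial calls, 0 were left with a minimum summed count of 10 (unadjusted p under 0.05 in 149 of 925 windows, 16.1% beside 5.55% of the genome) and 0 with DESeq2 on chromosome 1 (76 of 676 at an unadjusted p under 0.05, 11.2% beside 2.60% of that chromosome). The genome's calls fell too with the lower minimum, from 2034 to 566. DESeq2 made 1 call on all of chromosome 1, where the calls of the main test were not counted apart. The cluster's count of calls in the main test ranged from 0 to 10 when 1 pool was left out. It was 1 without control pool 1 or 3, 10 without control pool 2, and 0 without any 1 vinclozolin pool (83 to 126 windows at an unadjusted p under 0.05 in either direction, 12.3% to 18.6% beside 6.32% to 7.40% of the genome). The share of the genome called was 0.0247% and 0.0432% without control pools 1 and 3, 0.0411% without control pool 2, and 0.00669% to 0.0234% without a vinclozolin pool, beside 0.0615% in all. The quasi-likelihood test called 2, without and with the replicate block, beside 1696 and 540 windows in the genome. The stromal count of 44 was 13 with a minimum summed count of 10 (6065 in the genome), 87 with the quasi-likelihood test (23551), 72 with that test and the replicate block (19620), 0 with DESeq2 on chromosome 1 (198 windows at an unadjusted p under 0.05, 28.8% beside 4.00% of that chromosome, and 3 calls on all of chromosome 1), and 8 to 72 when 1 pool was left out. It was 16 without control pool 1, 9 without control pool 3, 19 without vinclozolin pool 1, 8 without vinclozolin pool 2, and 72 without control pool 2 or vinclozolin pool 3. The genome's stromal count of 18497 was 9028, 7843 and 6173 without control pools 1, 2 and 3 and 18355, 3136 and 10882 without vinclozolin pools 1, 2 and 3, so it moved with the pool left out as well. The cause was not tested. The epithelial log2 ratio of cluster to flanks was 3.43 to 3.52 when 1 pool was left out, with an exact permutation p of 0.0625, the smallest that 5 pools can give, and 2.23 over windows of the minimum summed count of 40. The epithelial lineage difference of the summed cluster stayed negative, from -0.30 to -0.15 (exact permutation p from 0.1 to 0.3) when 1 pool was left out. With 5 pools the smallest possible p is 0.1, so no such difference could pass a limit of 0.05. For the median over windows, which lay near the floor of the counts, it was -0.08 (exact permutation p = 0.8). With the replicate block, an exact permutation within pool numbers, the p of the summed cluster was 0.25, the smallest it can give. The ratio to flanks ranged from -0.30 to -0.15 (p from 0.1 to 0.4) without 1 pool. The median over windows could not be used for the ratio, as 3 pools had a median of 0. Within the cluster, control and vinclozolin pools of the same number correlated in their deviations at -0.03 to 0.23 in epithelial cells, beside -0.33 to 0.28 for other numbers, and at 0.03 to 0.24 in stromal cells, beside -0.17 to 0.06. In simulated epithelial windows drawn from the whole genome the exact test recovered 15% of 2-fold changes, and the part of depth in this was not tested. The cluster held a larger share of windows with a summed count of 400 or more, 244 of 676 beside 18686 of 3304649. Recovery at the cluster's own windows was not simulated.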

Other observations

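Within the cluster, deviations from the group mean were compared between epithelial and stromal pools of the same number. The sources used here do not say whether the pool numbers are those of the groups of rats. Across windows these deviations correlated at 0.0995 to 0.371 in the control and at 0.0562 to 0.0863 in the vinclozolin lineage. For pools of other numbers they correlated at -0.41 to 0.25 and at -0.06 to -0.02. Over all windows of the genome the same-numbered values ranged from -0.02 to -0.00 for control pools and from -0.05 to 0.00 for vinclozolin pools. Neighbouring windows share reads, so these correlations are descriptions.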
